A study of Mus musculus with 14 samples.

Results

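The TNF superfamily of cytokines, their receptors and the adaptor proteins of those receptors were followed in mouse macrophages by expression microarray. Members were the probes whose gene symbol on the array platform was Tnf, Cd40, Cd40lg, Fas, Fasl, Tradd, Fadd or Ripk1 to Ripk4, or began with Tnfsf, Tnfrsf, Tnfaip or Traf and a digit, with Traf1 left out by the rule. This gave 40 probes of 40 genes among 10012 probes on the array, of which 8983 had a single gene symbol. They were 10 ligands, 18 receptors, 6 intracellular adaptors and kinases, and 6 genes named for their induction by TNF or for likeness to such a gene (Tnfaip). The adaptors and kinases were Fadd, Traf2, Traf4, Traf5, Traf6 and Ripk4. No probe carried the symbol Tradd, Ripk1, Ripk2, Ripk3 or Traf3, so these genes were not followed. All 40 probes passed the filter on dim probes, and none had a missing value.

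The cells were primary macrophages of C57BL/6 female mice aged 6 weeks, drawn into the peritoneal cavity by thioglycollate medium, which provokes sterile inflammation. They were measured on 14 arrays, 2 for each of 7 groups. The groups were GW7845 with poly(I:C), GW3965 with poly(I:C), poly(I:C) alone, GW7845 with LPS, GW3965 with LPS, LPS alone, and no treatment. LPS, from the outer membrane of bacteria, is sensed by TLR4, and poly(I:C), which mimics viral double-stranded RNA, by TLR3. GW3965 activates the liver X receptors (LXRs) and GW7845 activates PPARγ, both of them nuclear receptors, and the series title asks how these receptors repress Toll-like receptor responses. Each agonist group analysed here also received a stimulus. The series text calls the replicates biological without saying whether each was 1 mouse or a pool. The p-values without a block measure the spread between the 2 arrays of a group. That spread includes a difference between 2 sets of arrays described below, which cannot be told apart from the preparation within a group. The sources used here give neither dose nor time of treatment.

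TNF superfamily ligands are mostly trimers, on the cell surface or shed from it, that cluster receptors of the TNF receptor superfamily. Some receptors carry a death domain and recruit FADD or TRADD towards caspase activation, while others bind TRAF proteins and feed the NF-kB and JNK pathways. Activated macrophages are a main source of TNF, and through receptors such as CD40 they receive help from T cells. NF-kB, which Toll-like receptors also activate, induces several of these genes together with inhibitors of the pathway.

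Promoters of the members are shown first because several members rose under the same stimuli and NF-kB and interferon-activated factors are the regulators most often tied to this family. RefSeq (GRCm38.p6) gave 300 bases, from 250 before to 50 after the start, for 32 of the 40 members, those of Cd40 and Tnfsf9 not among them. The motifs searched, on both strands, were the kappaB consensus and the core of the interferon-stimulated response element, which is GAAA, any 2 bases and GAAA again. Only the first listed promoter of each gene was searched, so matches at other starts of a gene are not covered. The kappaB consensus was found in 3 of the 32 members (9.38%), Tnfaip3, Tnfaip8l1 and Tnfrsf8, and in 4.35% of all 27025 genes with a promoter. The interferon element was found in 2 of the 32 (6.25%), Tnfrsf1b and Tnfrsf17, and in 3.49% of all, and no match of either motif overlapped the other. Of the 6 genes with a promoter that were called higher under a stimulus below, 0 held the kappaB consensus in this window and 1, Tnfrsf1b, held the interferon element. Tnfaip3, which encodes the NF-kB inhibitor A20, held 2 kappaB matches, which start 125 and 12 bases before the transcription start. The following promoters are given 5′ to 3′ on the gene's strand, with motif matches in capitals. Tnfaip3 lies at chr10:19015361-19015660, minus strand. Tnfrsf1b lies at chr4:145246821-145247120, minus strand, with the interferon element on the opposite strand. Tnf, at chr17:35201958-35202257, minus strand, had the largest rise of the 40 and Tnfsf10, at chr3:27316827-27317126, plus strand, was the member called with an agonist in the fit that took the array set as a block. Neither window matched either motif, which says only that these letters are not in those 300 bases.
Tnfaip3: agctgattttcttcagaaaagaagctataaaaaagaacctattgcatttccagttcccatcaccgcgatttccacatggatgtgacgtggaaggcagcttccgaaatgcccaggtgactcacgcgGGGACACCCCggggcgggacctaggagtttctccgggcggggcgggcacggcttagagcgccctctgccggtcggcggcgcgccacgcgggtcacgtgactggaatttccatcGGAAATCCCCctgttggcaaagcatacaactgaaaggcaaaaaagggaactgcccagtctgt
Tnfrsf1b: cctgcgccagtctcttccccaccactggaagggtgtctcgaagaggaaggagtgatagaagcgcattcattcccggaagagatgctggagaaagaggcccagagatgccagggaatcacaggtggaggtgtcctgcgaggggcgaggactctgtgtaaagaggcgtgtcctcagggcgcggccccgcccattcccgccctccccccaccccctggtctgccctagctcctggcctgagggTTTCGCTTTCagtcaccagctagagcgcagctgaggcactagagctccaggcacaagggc
Tnf: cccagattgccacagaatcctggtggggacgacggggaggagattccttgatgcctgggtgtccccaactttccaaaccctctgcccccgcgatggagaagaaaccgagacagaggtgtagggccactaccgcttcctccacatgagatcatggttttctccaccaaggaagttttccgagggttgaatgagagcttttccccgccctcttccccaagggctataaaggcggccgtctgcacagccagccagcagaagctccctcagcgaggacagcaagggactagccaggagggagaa
Tnfsf10: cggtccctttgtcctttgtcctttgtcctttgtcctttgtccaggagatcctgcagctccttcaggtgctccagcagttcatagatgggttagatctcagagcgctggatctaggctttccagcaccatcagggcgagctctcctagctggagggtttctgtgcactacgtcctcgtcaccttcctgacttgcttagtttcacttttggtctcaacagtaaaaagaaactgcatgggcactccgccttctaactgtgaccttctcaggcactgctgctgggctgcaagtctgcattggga

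Values below are log2 intensities relative to the median of the array, which is 0, so they are levels of a probe and are not compared between genes. The arrays fell into 2 sets of 7, A and B, inferred from the values since no label names them, which differed in which probes were missing and in their 10th percentile of intensity (0.137 to 0.271 in set A and 0.0549 to 0.0833 in set B). Every group had 1 array in each set, and of each pair of values below the first is from set A and the second from set B. The SE and adjusted p given are from limma over all 14 arrays without the set as a factor, and called genes are those with a Benjamini-Hochberg adjusted p under 0.05 among the 9584 probes tested. A second fit with the array set as a block is called the array-set fit. It has the same fold changes and is given where it changes a call. Of 8 macrophage markers, Lyz2, Lyz1, Cd14 and Msr1 had median log2 levels of 10.26, 9.85, 8.41 and 7.03. Itgam, Mrc1 and Adgre1 had medians of 3.38, 2.60 and 1.99, and Fcgr1 had one of -2.53. Of 8 T and NK cell markers, Cd3e, Cd8a and Nkg7 reached the floor of -3.87 on 1 to 3 arrays, while Cd4 (1.12) and Gzma (4.35) had medians above 0. The B-cell gene Cd79a had a median of 2.12. RNA of a mixed preparation was measured, so fewer cells of a type and less RNA per cell cannot be told apart.

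**Figure D1:**
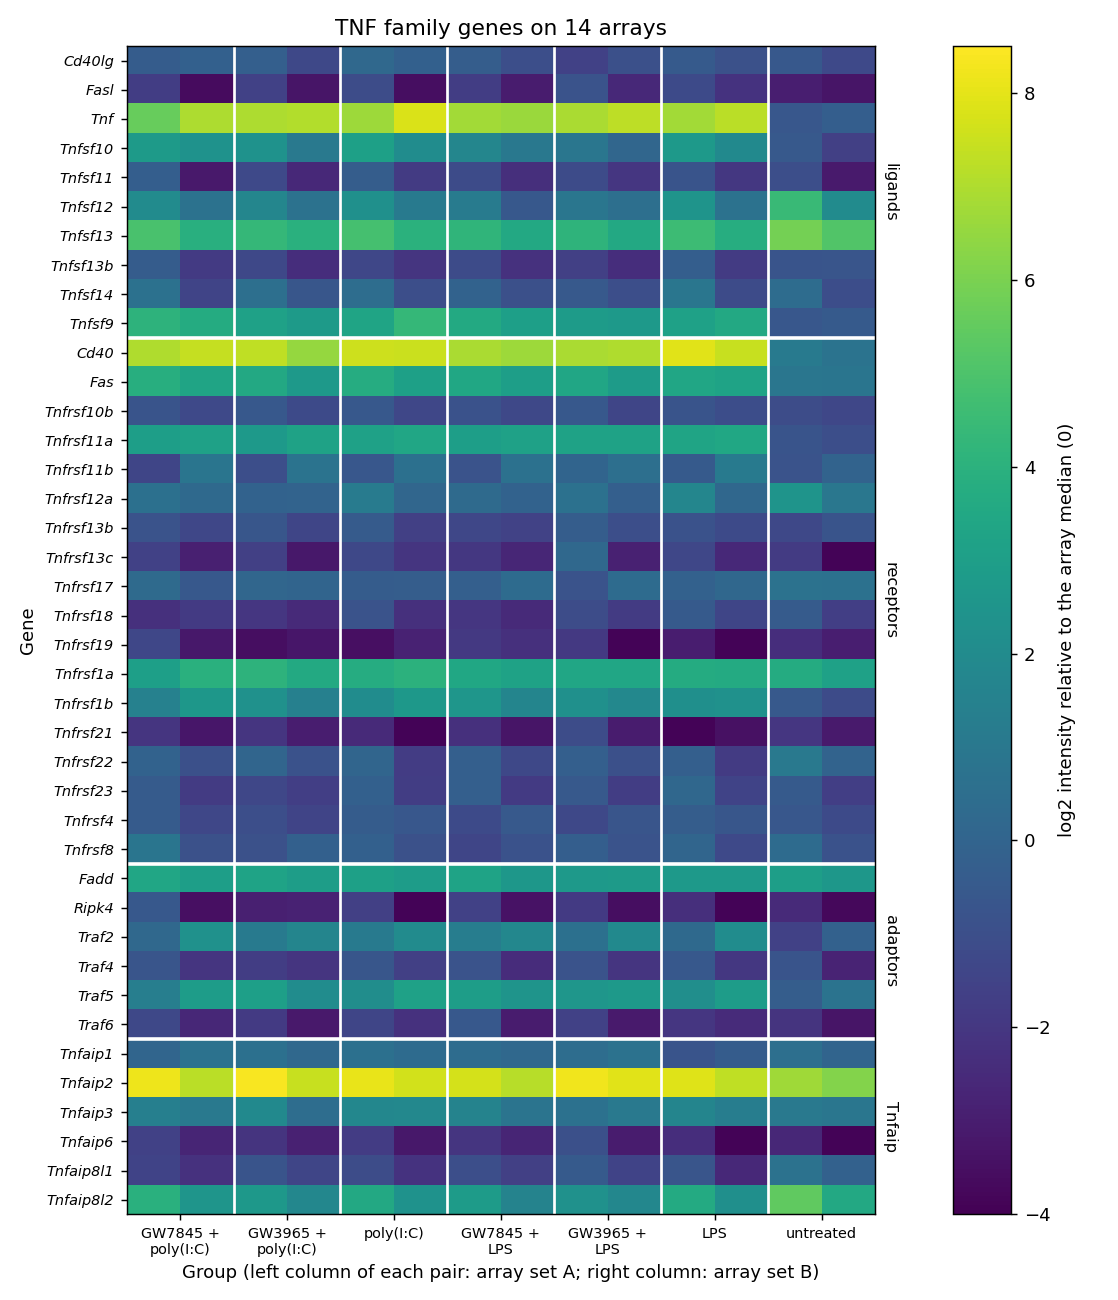
Log2 intensity of the 40 genes (rows, in 4 classes) on the 14 arrays (columns, 7 groups with array set A on the left and set B on the right of each pair), relative to the array median at 0. Tnf, Cd40, Tnfsf9, Tnfsf10, Tnfrsf11a, Tnfrsf1b, Fas and Traf5 are brighter in all 12 stimulated arrays than in the 2 untreated ones.

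The question of the stimulated against the untreated groups was which family members each ligand induced. Of the 40 genes, 8 rose under poly(I:C) and 8 under LPS, and none was called lower. Under each stimulus these were the ligands Tnf, Tnfsf9 and Tnfsf10, the receptors Cd40, Tnfrsf11a, Tnfrsf1b and Fas, and the adaptor Traf5. Of all probes tested, 8.86% were called under poly(I:C), 6.08% higher and 2.78% lower. Under LPS 7.8% were called, 5.21% higher and 2.6% lower. The median log2 fold change of the 40 genes was 0.42 under poly(I:C) and 0.27 under LPS, against 0.10 and 0.06 over all probes tested. With the array set as a block 15 members were called under each stimulus, 10 higher and 5 lower. That fit called 18.7% of all probes under poly(I:C), 10.6% higher and 8.03% lower, and 17.8% under LPS, 9.58% higher and 8.18% lower. Both comparisons share the 2 untreated arrays.

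Among the ligands, Tnf, the founding inflammatory cytokine of the family, had log2 levels of 6.65 and 7.77 under poly(I:C) and of 6.78 and 7.22 under LPS, against -0.61 and -0.27 in untreated cells. Its rise was 7.65 under poly(I:C) (SE 0.47, adjusted p = 1.1e-07) and 7.44 under LPS (SE 0.47, adjusted p = 1.8e-07), or 201-fold and 174-fold. The untreated levels lay below the array median and were not shown to be above background, so the size of these folds is approximate. Tnfsf9, the 4-1BB ligand that costimulates T cells, stood at 3.31 and 4.33 under poly(I:C) and at 3.13 and 3.56 under LPS, against -0.59 and -0.47 in untreated cells. It rose by 4.35 (SE 0.38, adjusted p = 3.9e-06) and by 3.88 (SE 0.38, adjusted p = 1.4e-05). Tnfsf10, the death ligand TRAIL and an interferon-induced gene, had levels of 3.12 and 2.08 under poly(I:C) and of 2.77 and 1.91 under LPS, against -0.49 and -1.64 in untreated cells. It rose by 3.67 (SE 0.56, adjusted p = 0.00064), and by 3.41 (SE 0.56, adjusted p = 0.0013), or about 12.7-fold and 10.6-fold against untreated levels that were likewise not shown to be above background. For these 3 ligands every stimulated array lay above both untreated arrays.

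Among the receptors, Cd40, through which T cells activate macrophages and B cells, had levels of 7.56 and 7.50 under poly(I:C) and of 7.95 and 7.46 under LPS, against 1.11 and 0.74 in untreated cells. Its rise was 6.61 (SE 0.37, adjusted p = 5.8e-08) and 6.78 (SE 0.37, adjusted p = 5e-08), or 97.5-fold and 110-fold. Tnfrsf11a, which encodes RANK, the receptor that drives osteoclast formation from macrophage precursors, stood at 3.17 and 3.41 under poly(I:C) and at 3.31 and 3.43 under LPS, against -0.76 and -1.01 without treatment. It rose by 4.18 (SE 0.31, adjusted p = 8.3e-07) and by 4.25 (SE 0.31, adjusted p = 7.5e-07), and all its stimulated arrays lay within a narrow band far above the untreated pair. Tnfrsf1b, TNF receptor 2, which has no death domain, had levels of 2.10 and 2.67 under poly(I:C) and of 2.22 and 2.31 under LPS, against -0.49 and -1.14 in untreated cells. The increases were 3.20 (SE 0.48, adjusted p = 0.00051) and 3.08 (SE 0.48, adjusted p = 0.00079). Tnfrsf1a, TNF receptor 1, which has one, was at 3.73 and 4.05 under poly(I:C) and at 3.68 and 3.65 under LPS, against 3.68 and 3.16 in untreated cells. Its differences of 0.47 (95% interval -0.31 to 1.25) and 0.25 (-0.53 to 1.03) did not pass. Of the 2 receptors of Tnf, Tnfrsf1b was called and Tnfrsf1a was not, and the difference between their changes was not tested.

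The death receptor Fas stood at 3.72 and 3.09 under poly(I:C) and at 3.42 and 3.27 under LPS, against 0.90 and 0.87 in untreated cells. It rose by 2.52 (SE 0.39, adjusted p = 0.00064), or 5.72-fold, and by 2.46 (SE 0.39, adjusted p = 0.00084), or 5.52-fold. The death domain adaptor Fadd, which links Fas to caspase-8, had levels of 3.09 and 2.91 under poly(I:C) and of 2.76 and 2.69 under LPS, against 3.01 and 2.63 in untreated cells. Both stimulated pairs overlapped the untreated pair, and no call was made. Traf5, an adaptor of CD40 and other receptors without a death domain, was at 2.14 and 3.14 under poly(I:C) and at 2.20 and 2.89 under LPS, against -0.32 and 0.76 in untreated cells. It rose by 2.42 (SE 0.56, adjusted p = 0.013) and by 2.32 (SE 0.56, adjusted p = 0.018). This was the weakest of the 8 calls: it ended under poly(I:C) without poly(I:C) 2 or untreated 1 (adjusted p = 0.13 each), and under LPS without LPS 2 (0.16), without untreated 1 (0.18, and 0.063 in the array-set fit) or without an intensity trend (0.058). The other 7 kept their call under both stimuli in every alternative fit that was run.

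**Figure D2:**
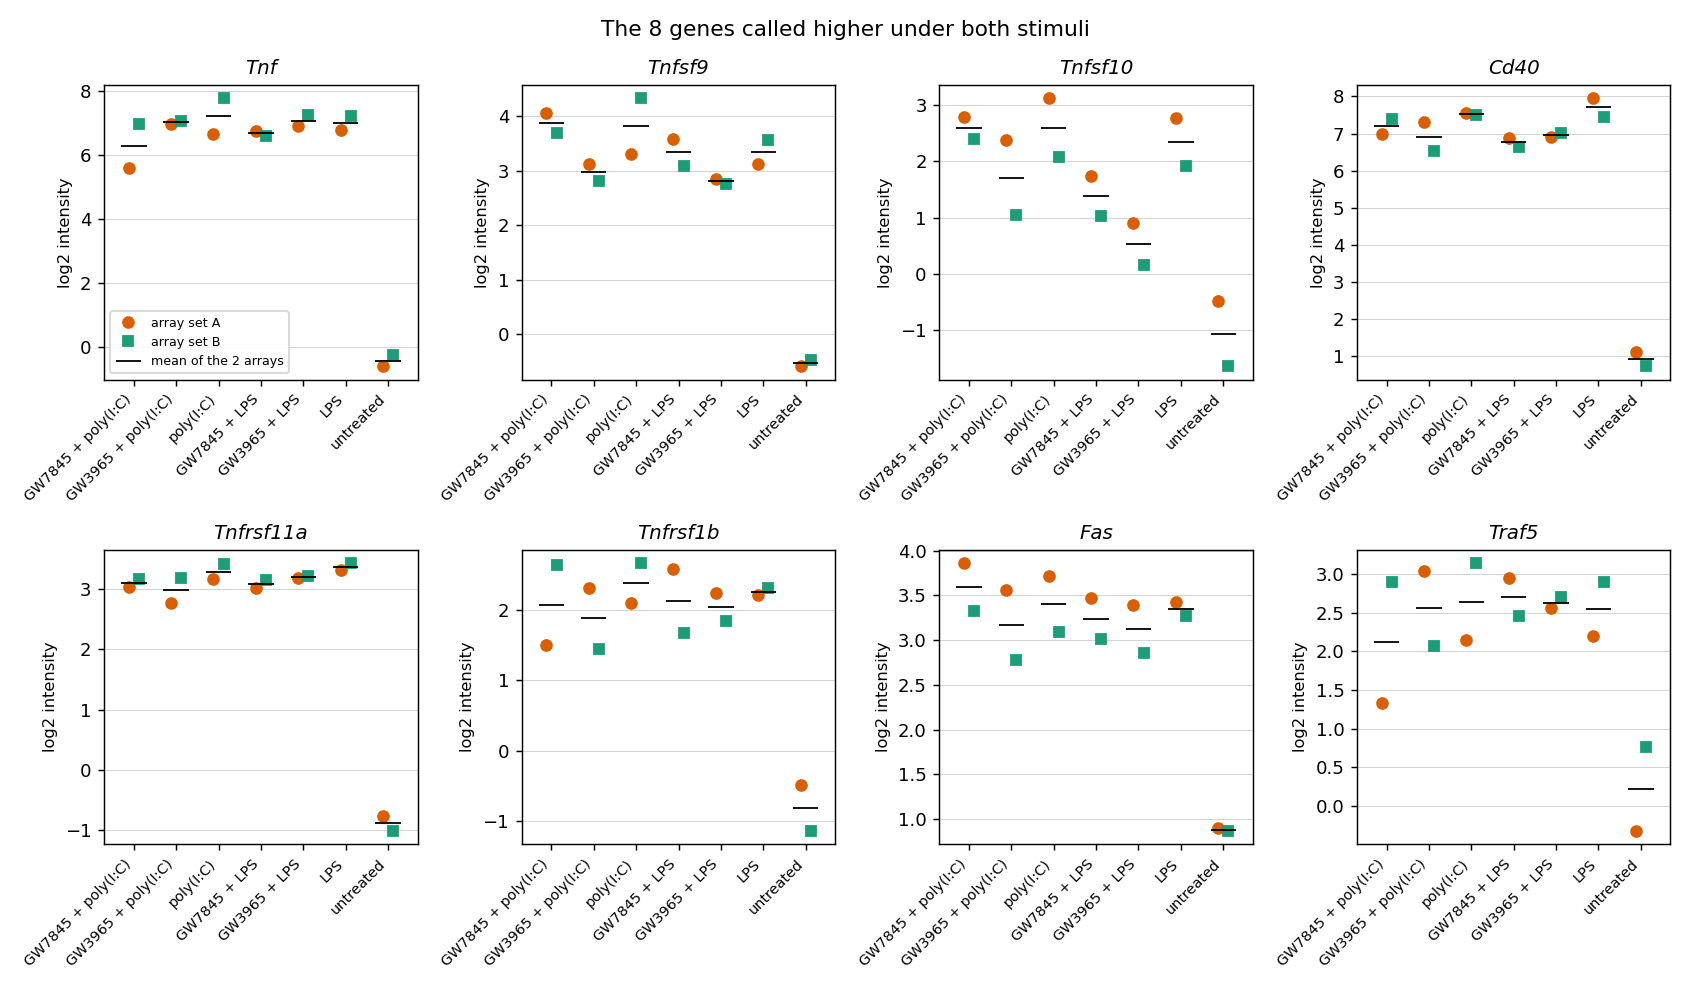
Log2 intensity of the 8 genes called higher under both stimuli, by group; circles are arrays of set A, squares arrays of set B and bars the mean of the 2 arrays, and each panel has its own vertical axis. All 12 stimulated arrays lie above both untreated arrays in each panel, and Tnfsf10 is lowest among stimulated groups with GW3965 and LPS.

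The array-set fit added 7 members to each stimulus, 2 higher and 5 lower. Traf2, the adaptor that couples TNF receptors to NF-kB and JNK signalling, had levels of 1.13 and 2.01 under poly(I:C) and of 0.25 and 2.07 under LPS, against -1.57 and -0.12 in untreated cells. The differences were 2.41 (SE 0.75, adjusted p = 0.065) and 2.01 (SE 0.75, adjusted p = 0.15) in limma, and passed in the array-set fit (adjusted p = 0.00037 and 0.0018). Tnfaip2, a gene induced by TNF in endothelial and myeloid cells, was bright everywhere, at 8.07 and 7.63 under poly(I:C) and at 7.89 and 7.28 under LPS, against 6.71 and 6.18 in untreated cells. Its differences of 1.40 and 1.14 passed in the array-set fit (adjusted p = 0.001 and 0.0051). Both genes were lower on their untreated array than on the stimulated array in the same set.

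In the other direction, Tnfsf13 (APRIL), a ligand that sustains plasma cells, was at 4.82 and 4.0 under poly(I:C) and at 4.59 and 3.77 under LPS, against 5.90 and 5.12 in untreated cells. Its difference was -1.10 (SE 0.47, sets A and B -1.08 and -1.12) under poly(I:C) and -1.33 (SE 0.47, sets -1.31 and -1.35) under LPS, with an adjusted p of 0.0038 and 0.001 in the array-set fit. Tnfsf12 (TWEAK), whose gene neighbours that of Tnfsf13 in the mouse, was at 2.25 and 1.10 under poly(I:C) and at 2.48 and 0.70 under LPS, against 4.47 and 2.04 without treatment. Its differences of -1.58 and -1.66 passed in the array-set fit (adjusted p = 0.011 and 0.0081). The stimulated arrays of set A overlapped the untreated range for Tnfsf12, but within each set the stimulated array was the lower.

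Tnfaip8l2 (TIPE2), known in the mouse as a restraint on Toll-like and T-cell receptor responses, had levels of 3.56 and 2.39 under poly(I:C) and of 3.62 and 2.22 under LPS, against 5.46 and 3.54 in untreated cells. The difference was -1.52 and -1.58, called in the array-set fit (adjusted p = 0.0024 and 0.002). Its relative Tnfaip8l1 was at -1.11 and -2.17 under poly(I:C) and at -0.71 and -2.57 under LPS, against 0.70 and -0.10 in untreated cells, a difference of -1.94 under both (adjusted p = 0.0021 and 0.0023 in the array-set fit). Tnfrsf22, a decoy receptor for TRAIL in the mouse, was at 0.08 and -1.78 under poly(I:C) and at -0.22 and -1.82 under LPS, against 1.03 and -0.04 in untreated cells. Its differences of -1.35 and -1.51 passed in the array-set fit too (adjusted p = 0.015 and 0.0077). With the array set as a block and 1 array left out, between 12 and 14 members were called under poly(I:C) and between 12 and 15 under LPS.

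**Figure D3:**
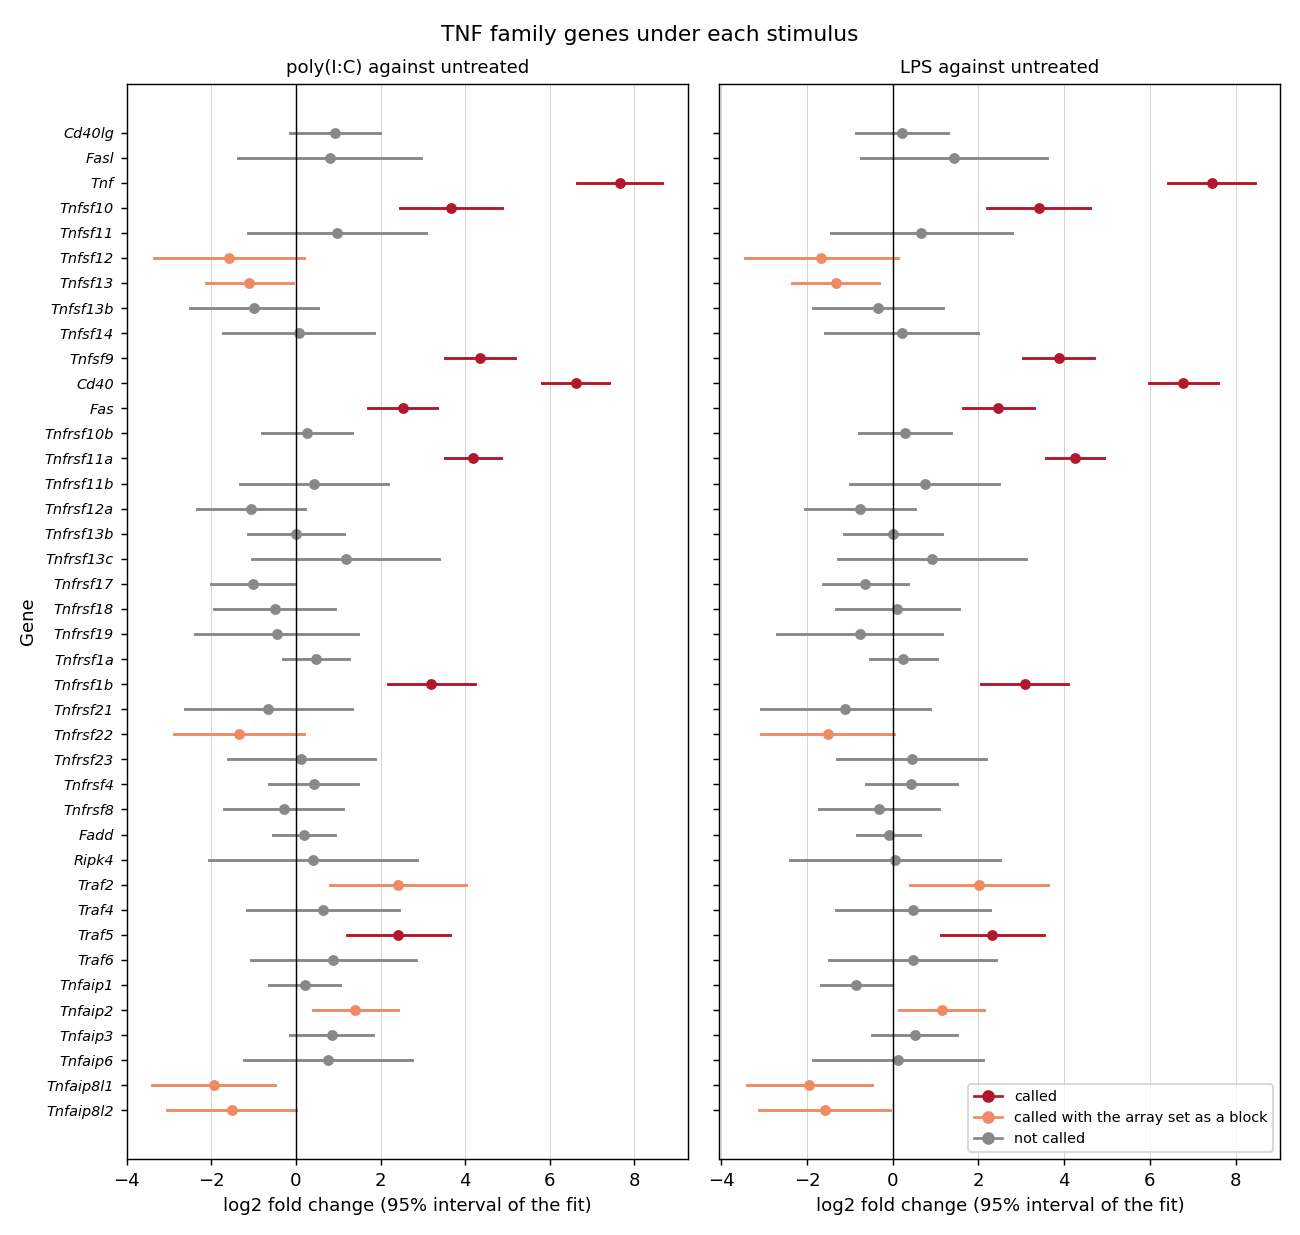
Log2 fold change of each of the 40 genes under poly(I:C) (left) and LPS (right) against untreated cells, with 95% intervals of the fit without a block. Red marks the 8 genes called, orange the 7 called only with the array set as a block, whose intervals without the block are wide and in part cross 0, and grey the other 25.

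The other 25 members were called in neither fit under either stimulus. They were 5 ligands, 13 receptors, the adaptors Fadd, Ripk4, Traf4 and Traf6, and Tnfaip1, Tnfaip3 and Tnfaip6. Tnfaip3 is known as a rapid NF-kB target, and its levels were 1.80 and 1.84 under poly(I:C) and 1.70 and 1.31 under LPS, against 1.07 and 0.90 in untreated cells. Both stimulated pairs lay above the untreated pair, with differences of 0.84 (95% interval -0.15 to 1.83) and 0.52 (-0.47 to 1.51). Of the 9584 probes tested, 1937 had such a higher pair under poly(I:C) and 2041 under LPS. Tnfaip6, which encodes the hyaluronan-binding protein TSG-6, was dim throughout, between -3.87 and -0.97, with 2 arrays at the floor of -3.87, where a value is only a bound. For 5 members at least 1 array was at that floor, and 13 lay below the array median on every array, among them Fasl, Tnfsf11, Tnfrsf10b, Traf4 and Traf6. No detection calls were used, so whether such levels were above background is not known.

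The 12 stimulated arrays, agonist groups included, all lay above both untreated arrays for 10 of the 40 members, and all below for 3. Over all probes tested these shares were 9.29% above and 7.73% below. The 10 were the 8 genes called, Traf2 and Tnfaip2. The 3 were Tnfsf13, Tnfaip8l1 and Tnfrsf17, the plasma cell receptor BCMA, which stood at -0.35 and -0.32 under poly(I:C) and at -0.12 and 0.19 under LPS, against 0.70 and 0.66 in untreated cells. Its differences of -1.01 and -0.64 passed in neither fit. Summed linear intensity of 6 B-cell markers was 17.8 to 21.7 under poly(I:C) and 28.9 to 29.4 under LPS, against 20.01 to 21.5 in untreated cells, and its part in the values of Tnfrsf17 and Cd40 was not tested. Of these markers, the array-set fit called Ms4a1 higher under LPS (1.43, adjusted p = 0.027). It called Cd79b lower under poly(I:C) (-1.41, adjusted p = 0.0071), and limma called neither. The sum of 6 neutrophil markers was 3.69 to 8.80 under poly(I:C) and 4.37 to 7.62 under LPS, against 1.18 to 2.22 in untreated cells. In that list Camp, the brightest by median (1.32), rose by 4.71 and 4.59 (adjusted p = 7.8e-05 and 0.00011). Elane and Mpo had medians of -2.50 and -3.12, near the floor. Ltf (-1.20 and -1.50) and Cxcr2 (-0.75 and -0.20) had lower means. Ngp had differences of -0.54 and 0.87, and neither it nor Ltf or Cxcr2 was called in either fit. The sum of 4 mast cell markers was 12.9 to 14.6 under poly(I:C) and 11.99 to 13.04 under LPS, against 8.16 to 9.23 in untreated cells, with no marker of that list called in limma or the array-set fit. Linear sums are weighted to their brightest genes, here Tpsb2, with a median log2 level of 3.60. Among macrophage markers, Cd14 rose by 2.86 and 2.69 (adjusted p = 0.0044 and 0.0076) and Msr1 by 1.25 and 1.34 (adjusted p = 0.037 and 0.028). Adgre1 rose by 2.21 under LPS (adjusted p = 0.04), and had a difference of 1.64 under poly(I:C), called in the array-set fit (adjusted p = 0.017). Itgam (-0.47 and -0.32), Mrc1 (-0.61 and -0.77) and Lyz1 (-0.16 and -0.28) had lower means. Lyz2 (0.11 and 0.23) and Fcgr1 (0.82 and 1.06) had higher ones, and none of these was called in either fit. The part of these markers in the rise of the 8 genes was not tested.

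The genes can also be read as pairs of ligand and receptor, between which no difference was tested. For Tnf, the ligand and Tnfrsf1b rose. For TRAIL the ligand rose, while its death receptor in the mouse, Tnfrsf10b, had differences of 0.26 under poly(I:C) and 0.29 under LPS. The decoy Tnfrsf23 had differences of 0.13 and 0.44, and the decoy Tnfrsf22 was lower, by the values above, in the array-set fit. For CD40 and RANK the receptor rose, while the ligands Cd40lg (0.92 and 0.21) and Tnfsf11 (0.97 and 0.67) did not pass. Cd40lg and Tnfsf11 are known mainly from T cells and stromal cells. The soluble RANKL decoy Tnfrsf11b, osteoprotegerin, had differences of 0.42 and 0.75 that did not pass either. For Fas the receptor rose, and Fasl had differences of 0.80 (95% interval -1.37 to 2.96) and 1.43 (-0.74 to 3.59). For TWEAK, the ligand was lower in the array-set fit and the receptor Tnfrsf12a had differences of -1.07 and -0.77 that did not pass. Tnfsf13b (BAFF) had differences of -0.99 under poly(I:C) and -0.33 under LPS. Its receptor Tnfrsf13b had a difference of 0.00 under each stimulus, and its receptor Tnfrsf13c had differences of 1.17 and 0.92. None of these was called in either fit.

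**Figure D4:**
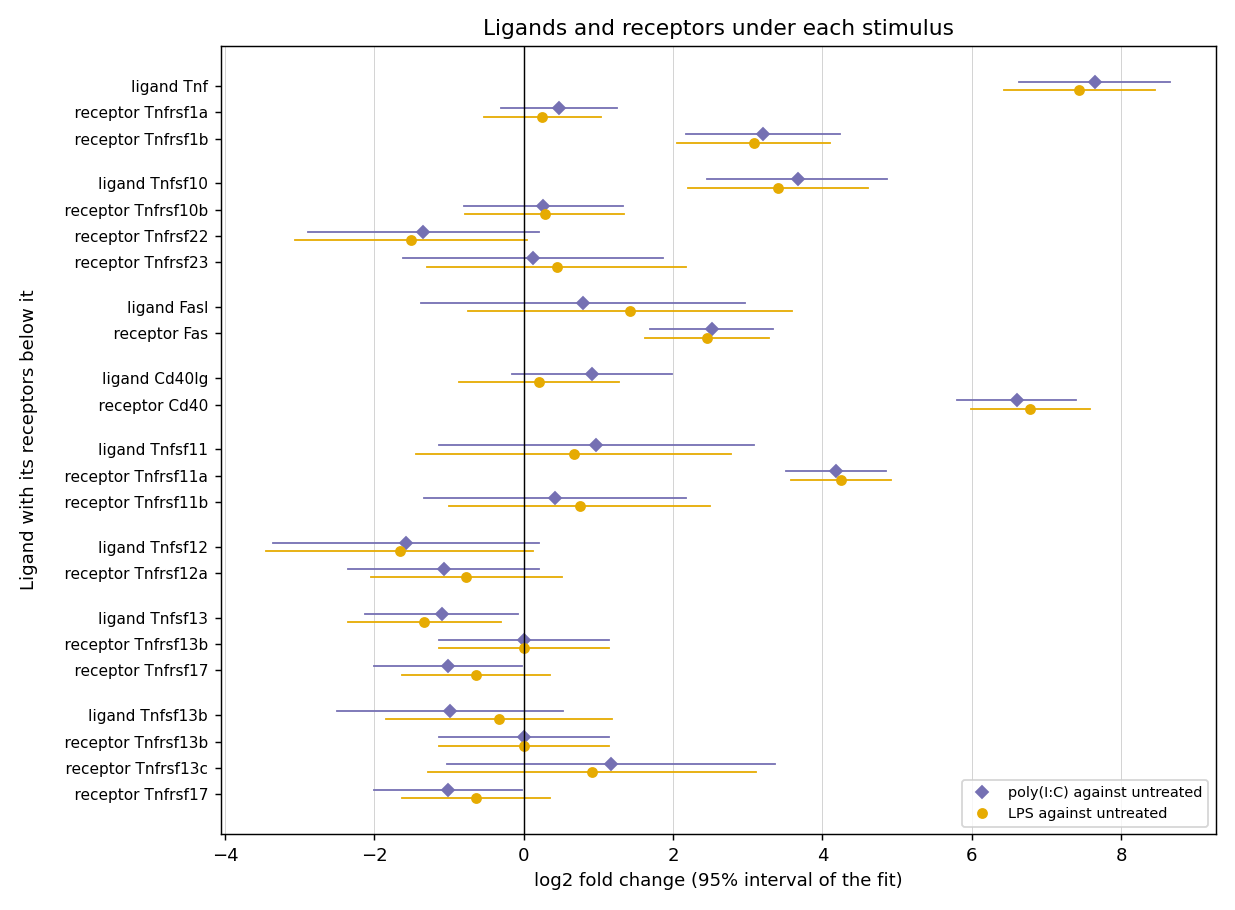
Log2 fold change against untreated cells, with 95% intervals of the fit without a block, for 8 ligands and the receptors listed below each (diamonds poly(I:C), circles LPS). Tnfrsf13b and Tnfrsf17 bind both Tnfsf13 and Tnfsf13b and are drawn with each; Cd40, Tnfrsf11a and Fas lie to the right of 0 with their intervals while their ligands' intervals cross it.

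Compared directly, poly(I:C) and LPS differed in 0 of the 40 members by limma, with 1 at an unadjusted p under 0.05, and in 0 by the array-set fit, with 1 likewise. Over all probes limma called 0.0104% and the array-set fit 0.0209%, with 0.543% and 3.14% at an unadjusted p under 0.05. Tnfaip1, a gene first found as induced by TNF in endothelial cells, had the smallest p. Its levels were 0.63 and 0.39 under poly(I:C), against -0.74 and -0.35 under LPS, a difference of 1.06 (95% interval 0.22 to 1.89, adjusted p = 1). For Tnf the difference was 0.21 (95% interval -0.80 to 1.22) and for Cd40 -0.18 (-0.97 to 0.62). Differences within these intervals are not excluded.

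Beyond the members, 43 of a list of 61 genes of the pathway, such as NF-kB subunits, inhibitors and death signalling genes, had a probe. Of these, 20 rose under poly(I:C) and 0 fell, and 17 rose under LPS and 1 fell. Over all probes 6.08% were called higher and 2.78% lower under poly(I:C), and 5.21% and 2.6% under LPS. In the array-set fit 24 rose and 4 fell under poly(I:C), and 23 rose and 4 fell under LPS, where the shares of all probes were 10.6% and 8.03%, and 9.58% and 8.18%. Their median log2 fold change was 1.13 and 1.00, against 0.10 and 0.06 over all probes. The largest rises included Daxx, a nuclear protein that binds Fas, at 4.56 under poly(I:C) (SE 0.43) and 3.77 under LPS (SE 0.43), and Cflar, the caspase-8 inhibitor cFLIP, at 4.28 and 4.21 (SE 0.33 each). The atypical NF-kB regulator Nfkbiz rose by 4.14 and 3.50 (SE 0.51), the NF-kB inhibitor Nfkbia by 3.83 and 3.47 (SE 0.71) and the subunit Rel by 3.53 and 2.83 (SE 0.48). Jun, a subunit of AP-1, fell by 3.11 under LPS (SE 0.75, adjusted p = 0.018, sets -4.54 and -1.68). Cd70, a superfamily ligand whose symbol falls outside the rule and which was picked out after its values were seen, rose by 3.09 under poly(I:C) (SE 0.63, adjusted p = 0.0052) and by 2.99 under LPS (SE 0.63, adjusted p = 0.0073).

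The next question was whether the agonists changed these genes in stimulated cells. Limma called 0 of the 40 members in each of the 4 comparisons of an agonist and stimulus with the stimulus alone. In the array-set fit 1 member was called, Tnfsf10 under GW3965 with LPS, and 0 in the other 3 comparisons. Of all probes, limma called 0.0313% for GW3965 with LPS, 0.0104% for GW3965 with poly(I:C) and 0% for GW7845 with either, while the array-set fit called 0.407% (0.313% lower), 0.073% and 0%. At an unadjusted p under 0.05, limma had 0 members for GW7845 and 1 for GW3965 with poly(I:C), where 0.866% and 1.49% of all probes passed, and 2 members for each agonist with LPS, where 1.44% passed for GW7845 and 3.11% for GW3965. The array-set fit had 1 and 4 members with poly(I:C), where 3.78% and 6.19% of all probes passed, and 7 and 8 with LPS, where 5.97% and 9.76% passed.

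Tnfsf10 (TRAIL), which both stimuli had raised, was lower with GW3965 and LPS. Its levels were 0.91 and 0.15 with GW3965 and LPS, against 2.77 and 1.91 with LPS alone. Both arrays with the agonist lay below both without it and above both untreated arrays at -0.49 and -1.64. Of the 9584 probes tested, 1174 had both arrays with GW3965 and LPS below both with LPS alone. The difference was -1.81 (SE 0.56, sets -1.85 and -1.77, adjusted p = 1), or 3.51-fold, and in the array-set fit it fell with an adjusted p of 0.012. That call held without GW3965 with LPS 2 (adjusted p = 0.025) and was lost without LPS 1 (0.13), LPS 2 (0.14) or GW3965 with LPS 1 (0.13), with differences between -1.88 and -1.74. In a fit of these 4 arrays alone it was called too (adjusted p = 0.012). That fit uses the same arrays and is not separate support, and its share of all probes called is not given here. Summed marker intensity was 3.11 to 4.23 with GW3965 and LPS, against 4.37 to 7.62 with LPS alone, for 6 neutrophil genes, and 2337 to 2619 against 2632 to 4073 for 8 macrophage genes. For 8 T and NK cell genes it was 18.2 to 28.2 against 22.6 to 28.0. These linear sums are weighted to their brightest genes, which were Camp, then Lyz2 and Lyz1, then Gzma. The part of these sums in the Tnfsf10 difference was not tested.

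Under the other treatments, Tnfsf10 was at 1.74 and 1.02 with GW7845 and LPS, against 2.77 and 1.91 with LPS alone. That difference of -0.96 (95% interval -2.17 to 0.25, sets -1.03 and -0.90) was not called in either fit. With GW3965 and poly(I:C) it was at 2.38 and 1.04, against 3.12 and 2.08 with poly(I:C) alone, a difference of -0.89 (95% interval -2.10 to 0.32). With GW7845 and poly(I:C) it was at 2.79 and 2.39, a difference of -0.01 (95% interval -1.22 to 1.20). In direct comparison GW7845 exceeded GW3965 by 0.85 with LPS (95% interval -0.36 to 2.06) and by 0.88 with poly(I:C) (-0.33 to 2.09). Neither was called (adjusted p = 0.65 and 0.46 in the array-set fit). The change with GW3965 under poly(I:C) minus that under LPS was 0.92 (95% interval -0.79 to 2.63, adjusted p = 1), so a difference between the stimuli was not shown.

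Cd40 had a lower mean with each agonist under each stimulus, and none of these differences was called in either fit. Its levels were 7.0 and 7.39 with GW7845 and poly(I:C) and 7.30 and 6.54 with GW3965 and poly(I:C), against 7.56 and 7.50 with poly(I:C) alone. They were 6.89 and 6.65 with GW7845 and LPS and 6.92 and 7.02 with GW3965 and LPS, against 7.95 and 7.46 with LPS alone. Each agonist pair lay below its stimulus pair. With poly(I:C) the same held for 645 of the 9584 probes tested for GW7845 and for 1136 for GW3965. With LPS it held for 1054 for GW7845 and for 1174 for GW3965. The differences were -0.33 (95% interval -1.13 to 0.46) and -0.61 (-1.41 to 0.18) for GW7845 and GW3965 under poly(I:C), and -0.94 (-1.73 to -0.14) and -0.73 (-1.53 to 0.06) under LPS, each with an adjusted p of 1. The agonists of a stimulus share its 2 arrays. Summed B-cell marker intensity was 22.3 to 26.05 with GW7845 and LPS and 22.8 to 32.9 with GW3965 and LPS, against 28.9 to 29.4 with LPS alone, and its part in the Cd40 differences was not tested. The 8 agonist arrays lay between 6.54 and 7.39, against 1.11 and 0.74 in untreated cells.

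Tnf itself was not called with any agonist. With GW7845 and poly(I:C) it stood at 5.60 and 6.97 and with GW3965 and poly(I:C) at 6.98 and 7.07, against 6.65 and 7.77 with poly(I:C) alone. With GW7845 and LPS it stood at 6.76 and 6.60 and with GW3965 and LPS at 6.91 and 7.24, against 6.78 and 7.22 with LPS alone. GW7845 with poly(I:C) gave the smallest p among members in that comparison, at -0.93 (SE 0.47, 95% interval -1.93 to 0.08, sets -1.05 and -0.80). The other differences were -0.19 (95% interval -1.19 to 0.82) for GW3965 with poly(I:C), -0.32 (-1.33 to 0.69) for GW7845 with LPS and 0.07 (-0.93 to 1.08) for GW3965 with LPS. Changes of any size within these intervals are not excluded.

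Tnfaip1 was at 0.40 and 0.21 with GW7845 and LPS and at 0.45 and 0.69 with GW3965 and LPS, against -0.74 and -0.35 with LPS alone. The differences were 0.85 (95% interval 0.01 to 1.69) and 1.12 (0.28 to 1.96), neither called in either fit. The 2 LPS arrays were the lowest of all 14 for this gene, and both comparisons share them. Tnfsf9 was at 3.13 and 2.81 with GW3965 and poly(I:C), against 3.31 and 4.33 with poly(I:C) alone. The difference of -0.85 (95% interval -1.67 to -0.02, sets -0.18 and -1.52) was called in neither fit. With GW7845 and poly(I:C) Tnfsf9 was at 4.06 and 3.69, and GW7845 exceeded GW3965 by 0.90 there (95% interval 0.08 to 1.72, sets 0.92 and 0.88, adjusted p = 1). With LPS, its levels were 2.85 and 2.76 with GW3965 and 3.59 and 3.08 with GW7845, against 3.13 and 3.56 with LPS alone. Neither of these differences with LPS was called in either fit. Tnfrsf18 (GITR), a costimulatory receptor of T cells, was at -2.01 and -2.49 with GW7845 and LPS, against -0.44 and -1.41 with LPS alone, a difference of -1.33 (95% interval -2.76 to 0.10). The sum of 8 T and NK cell markers was 16.7 to 21.8 with GW7845 and LPS, against 22.6 to 28.0 with LPS alone, and its part in the Tnfrsf18 difference was not tested. That linear sum is weighted to its brightest gene, Gzma, whose log2 difference was -0.40. Cd2 (-1.16), Cd8a (-1.03), Nkg7 (-0.54), Cd3g (-0.29) and Cd4 (-0.28) had lower means too. Cd3d (0.04) and Cd3e (0.05) did not, and none of these genes was called in either fit. Tnfaip3 was at 1.41 and 1.07 with GW7845 and poly(I:C), against 1.80 and 1.84 with poly(I:C) alone, a difference of -0.58 (95% interval -1.57 to 0.41). Tnfrsf1a was at 3.08 and 3.93 with GW7845 and poly(I:C), against 3.73 and 4.05, a difference of -0.38 (95% interval -1.17 to 0.40).

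**Figure D5:**
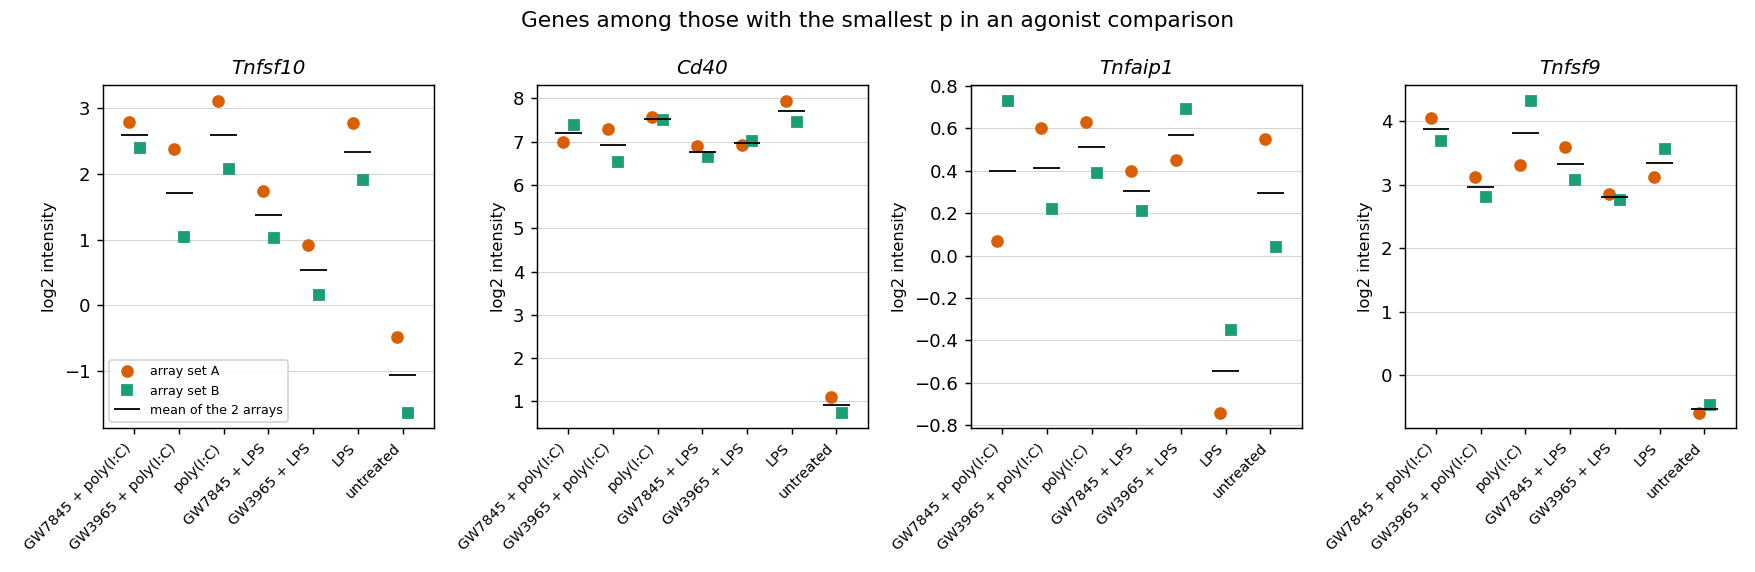
Log2 intensity by group of 4 genes that were among the 3 with the smallest p in an agonist comparison; circles are arrays of set A, squares arrays of set B, bars the mean of the 2 arrays, and each panel has its own vertical axis. Tnfsf10 stands at 0.91 and 0.15 with GW3965 and LPS, below LPS alone in both sets, and Tnfaip1 is lowest with LPS alone.

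For the remaining genes called under a stimulus, each difference with an agonist had the SE given above for that gene's rise. Larger changes within the intervals that this SE gives are not excluded. For Tnfrsf11a the 4 differences lay between -0.31 and -0.17, for Fas between -0.23 and 0.19, for Tnfrsf1b between -0.50 and -0.14 and for Traf5 between -0.53 and 0.16, none called in either fit. Across all 40 members, the median difference was -0.17 for GW7845 and -0.21 for GW3965 with poly(I:C), and -0.31 for GW7845 and -0.17 for GW3965 with LPS. Over all probes tested these medians were 0.03, -0.10, -0.04 and 0.03. Members below 0 in both array sets numbered 14 for GW7845 and 18 for GW3965 with poly(I:C), and 21 for GW7845 and 18 for GW3965 with LPS. The same held for 22.2%, 29.3%, 28% and 24.2% of all probes. Between the agonists, GW7845 against GW3965, limma called 0 members with either stimulus and so did the array-set fit. Of all probes, limma called 0.0417% with poly(I:C) and 0.0104% with LPS, and the array-set fit 0.104% and 0.0626%. At an unadjusted p under 0.05 there were 1 member with poly(I:C) and 0 with LPS in limma (1.98% and 1.62% of all probes), and 4 and 2 in the array-set fit (7.95% and 5.94%). Tests of whether an agonist acted differently under the 2 stimuli called 0 members and 0% of all probes in either fit, for both agonists. At an unadjusted p under 0.05 there were 0 members for GW7845 and 1 for GW3965 in limma (0.48% and 0.303% of all probes), and 2 for each in the array-set fit (2.93% and 2.86%).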

How the data were processed

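Biotin-labelled RNA from 14 macrophage samples was hybridised to 1-colour arrays, per the labels' protocols. The deposited values are linear intensities that the authors had scaled to a median of 1 on each array (1 array had 1.001); on no array did more than 0.421% of values fall to 0 or below. The sources used here do not give the scanner software, background method or scaling, and no detection calls were used. Gene names are those of the platform annotation, in which 1028 probes had no symbol and 1 had several.

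Lower values were set to 0.0686, the 5th percentile of positive values, before log2 was taken. Probes with at least 2 arrays above their own 20th percentile were tested. Group means were fitted in limma 3.58.1 (R 4.3.3; Python 3.11.15 for tables) with 7 residual degrees of freedom and an intensity trend, two-sided; the fit with the array set as a block had 6. The fit without the block was tried on simulated arrays with independent noise and no difference between array sets. That trial therefore does not cover the set difference seen here. The 2 array sets were found from shared missing values: 29 probes lacked a value throughout set A but had one throughout set B, and 30 the reverse. Replicate numbers did not pair the samples, since the deviations of GW7845 with LPS ran against those of the same-numbered arrays (r of -0.54 to -0.39) while other groups ran together (at least 0.35); the arrays of GW7845 with LPS have the opposite numbers in the sets.

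The members, lists and tests were chosen with earlier results of these data known. Named with values were Tnf and the members called in any comparison of groups. The 3 members with the smallest p for each agonist against its stimulus were named too. Values on every array are given in the text for Tnf, Cd40, Tnfsf9 and Tnfsf10. For Fas, Tnfrsf11a, Tnfrsf1b and Traf5 the agonist arrays enter the text only as ranges of differences. Other genes are named where they complete a ligand and receptor pair or were called with the array set as a block. With 2 arrays a group, their number limits the precision. The 95% intervals of the fit are not corrected for multiple testing.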

Additional observations from a re-analysis of the deposited data

How the results depend on the processing

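Counts of called members kept their value, or moved by at most 1.5 times, under a floor at the 1st or 10th percentile, no filter on dim probes, quantile normalization, no intensity trend, the replicate block, and without the array titled GW7845 + PolyIC 1. The exceptions lie in other settings. With the array-set block 15 members were called under LPS and 15 under poly(I:C), against 8 each without it, and 1 with GW3965 and LPS against 0. Over all probes the block called 17.8% under LPS, 18.7% under poly(I:C) and 0.407% with GW3965 and LPS. Without it these shares were 7.8%, 8.86% and 0.0313%. A fit of only the arrays compared called 1 with GW3965 and LPS, Tnfsf10, and its share of all probes called is not given here. Leaving out 1 array gave 7 to 9 members under LPS, 7 to 8 under poly(I:C) and 0 in the other comparisons. With the array-set block as well, a choice added after the data were seen, the ranges were 12 to 15 (13 without untreated 1), 12 to 14 and, for GW3965 with LPS, 0 to 1. The replicate block gave 11 members under LPS, 11 under poly(I:C) and 0 elsewhere, with the numbers not pairing the arrays. It ended no call of the 8 genes and added Traf2, Tnfaip8l1 and Tnfsf13 under LPS and Traf2, Tnfaip8l1 and Tnfaip2 under poly(I:C). Apart from the array-set block with all arrays, the shares of all probes called in these settings are not given here. Their member counts therefore cannot be set against the array as a whole.

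Values near 0 changed sign. Tnf under poly(I:C) against LPS was -0.13 within set A, -0.01 without LPS 1, and -0.35 to 0.77 over arrays left out, the lowest without poly(I:C) 2. Tnf with GW3965 and poly(I:C) was 0.33 within set A, 0.12 after quantile normalization and -0.75 to 0.37 over arrays left out, the highest without poly(I:C) 2. Tnf with GW3965 and LPS was -0.15 to 0.29 over arrays left out, the lowest without LPS 1, -0.09 without GW3965 with LPS 2 and -0.03 without GW3965 with LPS 1 in the array-set fit. Tnfrsf1a with GW7845 and poly(I:C) was -0.81 to 0.04 over arrays left out, the highest without GW7845 with poly(I:C) 1. None of these was called, and the cause was not tested. Quantile normalization moved the median of all probes by -0.14 under LPS, -0.17 under poly(I:C), 0.11 for GW3965 with poly(I:C) and -0.14 for GW7845 against GW3965 with poly(I:C). Without detection calls, levels near the floor of -3.87 cannot be told from background.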

Other observations

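The pathway genes outside the family were also read with the agonists. Limma and the array-set fit each called 0 of the 43 in all 4 comparisons of an agonist and stimulus with the stimulus. With GW3965 and LPS against LPS, there were 2 at an unadjusted p under 0.05 by limma and 6 by the fit with the array set as a block, where 3.11% and 9.76% of all probes passed. The 2 in limma were Daxx, at -1.12 (SE 0.43), and Casp8, the caspase at the head of death receptor signalling, at -0.86 (SE 0.39). Their adjusted p in limma was 1 each, and 0.15 and 0.19 with the array set as a block. With GW7845 and LPS these counts were 0 and 3, with GW3965 and poly(I:C) 0 and 3, and with GW7845 and poly(I:C) 0 and 3. Over all probes the shares were 1.44% and 5.97%, 1.49% and 6.19%, and 0.866% and 3.78%. The median difference over the 43 genes was -0.08 for GW3965 and -0.10 for GW7845 with LPS.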
